A study of Homo sapiens with 16 samples.

Results

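The complement factors and regulators described here are 9 genes of the deposited table of 39007 gene rows. They were taken by symbol, with no threshold on their values, as C3, the proteases C1R, C1S, CFB, CFD and CFI, and the membrane inhibitors CD46, CD55 and CD59. Each symbol matched 1 row in all 16 libraries. The study exposed T24 cells, an established human bladder cancer line, to gemcitabine, a deoxycytidine analog that blocks DNA synthesis, in repeated rounds, and called each round that the cells survived a phase. The parental phase P0 is T24 before selection, and 3 later phases of the GRC1 line derived from it were sequenced, named early (P3), intermediate (P7) and late (P15), with 4 libraries each. All phases were grown in the same medium with fetal bovine serum. The sample titles carry the tag NT, which is not explained, and the labels do not say whether gemcitabine was present at harvest. GRC1 is 1 of several lines that the study selected, and phase cannot be told apart from time in culture. The S numbers that end the titles repeat between phases, and the labels do not say which libraries were sequenced together. The labels do not say that the libraries of a phase came from separate cultures, so p-values measure only the spread between these libraries.

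Complement is a cascade of proteins that marks and lyses cells. Proteases activate it in steps (C1R and C1S in the classical pathway, CFD and CFB in the alternative pathway) and converge on C3, whose fragments attach to surfaces. Cells protect themselves with membrane proteins: CD55 takes apart the enzymes that cleave C3, CD46 helps the protease CFI to inactivate attached fragments, and CD59 blocks the membrane attack complex. Most plasma complement comes from the liver, and epithelial cells, including those of tumours, also make several components.

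Promoter windows, the 250 bases before a RefSeq start site, were on hand for 7 of the 9 genes on GRCh38.p14. A set of 6 motifs was searched in them. Sequence is shown for the alternative pathway proteases CFB and CFD and the inhibitors CD46 and CD59, as examples of windows with a match outside annotated exons. Each is the longest stretch of a window without bases that GENCODE 44 places in an exon. It is printed 5′ to 3′ on the strand of the gene, and capitals mark motif matches.
CFB, chr6:31945845-31945974, plus strand: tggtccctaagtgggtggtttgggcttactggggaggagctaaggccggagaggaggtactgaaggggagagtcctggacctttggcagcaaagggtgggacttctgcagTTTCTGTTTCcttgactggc
CFD, chr19:859533-859663, plus strand: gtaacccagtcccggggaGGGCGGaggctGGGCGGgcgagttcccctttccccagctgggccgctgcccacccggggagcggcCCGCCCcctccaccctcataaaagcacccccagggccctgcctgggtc
CD46, chr1:207751788-207752036, plus strand: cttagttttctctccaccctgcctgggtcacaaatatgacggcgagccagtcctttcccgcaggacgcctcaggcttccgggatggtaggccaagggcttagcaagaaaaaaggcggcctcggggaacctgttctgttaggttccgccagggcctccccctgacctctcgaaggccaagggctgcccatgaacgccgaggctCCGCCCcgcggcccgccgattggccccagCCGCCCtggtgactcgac
CD59, chr11:33736480-33736729, minus strand: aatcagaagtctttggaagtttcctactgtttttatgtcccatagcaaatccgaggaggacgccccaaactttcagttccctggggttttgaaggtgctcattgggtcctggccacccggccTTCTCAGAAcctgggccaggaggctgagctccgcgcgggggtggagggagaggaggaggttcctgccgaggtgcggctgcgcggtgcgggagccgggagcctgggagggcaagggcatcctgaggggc
The capitals in CFB are a match to the interferon-stimulated response element (on the opposite strand), which 3.0% of all 35116 windows of this length held and 1 of the 7 genes did. A STAT motif (TTCNNNGAA, the capitals in CD59) stood in windows of 3 of the 7 genes (C1R, CFB and CD59), and in 6.6% of all windows. The match in CFB lies in exon bases and is not shown. CFD and CD46 held GC boxes (GGGCGG, either strand), a motif of 4 of the 7 genes and of 42.6% of all windows. The C/EBP motif (TTGCNNAA) was found for 2 of the 7 genes and in 9.1% of all windows, AP-1 (TGANTCA) for 1 and in 6.6%, and the kappaB motif for none and in 1.4%. All motifs were searched on both strands. C1R, CD46 and CD59 had more than 1 window, some of them overlapping, and a gene was counted if any of its windows held the motif. The percentages are shares of single windows, so the gene counts cannot be compared with them directly. A match is a description of letters in the window.

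Values are log2 of CPM plus 1, where CPM is the count of a gene scaled to the library total. Libraries held an estimated 33.8 to 50.3 M counts, and the 10 largest genes took 5.41 to 7.08% of them. Of the 9 genes, 7 had a mean above 1 CPM over all libraries and were tested with limma among 13249 such genes. CFB and CFI lay below this mean. Differences are first phase minus second on the log2(CPM + 1) scale, which understates changes of low genes, and a gene was called at a Benjamini-Hochberg adjusted p-value below 0.05. Folds from the fit are folds of CPM plus 1, so for low genes they are smaller than folds of CPM. Replicate 2 of P0 had the highest share of mitochondrial RNA of its phase, 1.80% against 0.94 to 1.14% in the other 3 libraries. The share was 1.36 to 1.59% at P3, 1.63 to 1.92% at P7 and 1.13 to 1.32% at P15, and its part in the differences from P0 was not tested. Comparisons against the same phase share its libraries.

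C3, the central component, was highest in the parental cells and lowest at P3. It read 9.49, 9.49, 9.40 and 9.49 in the P0 libraries, 7.23, 7.21, 7.17 and 7.16 at P3, 8.17, 8.15, 8.19 and 8.18 at P7, and 8.43, 8.46, 8.49 and 8.37 at P15. No library of a phase overlapped another phase, and the order was P0, P15, P7, P3. In CPM, C3 stood at 707 ± 21.7 (SD, n = 4 libraries) at P0, 145 ± 3.35 at P3, 288 ± 3.41 at P7 and 346 ± 12.2 at P15. Against P0 it was 4.84-fold lower at P3 (log2 difference -2.27, SE 0.03, limma adjusted p = 3.2e-25), 2.45-fold lower at P7 (-1.29, adjusted p = 1.3e-20) and 2.04-fold lower at P15 (-1.03, adjusted p = 6.1e-20). From P3 to P7 it rose by 0.98 (SE 0.03, adjusted p = 7.6e-18), and from P7 to P15 by 0.27 (adjusted p = 1.9e-08). These are bulk values, in which fewer cells with C3 RNA and less C3 RNA per cell cannot be told apart.

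**Figure D1:**
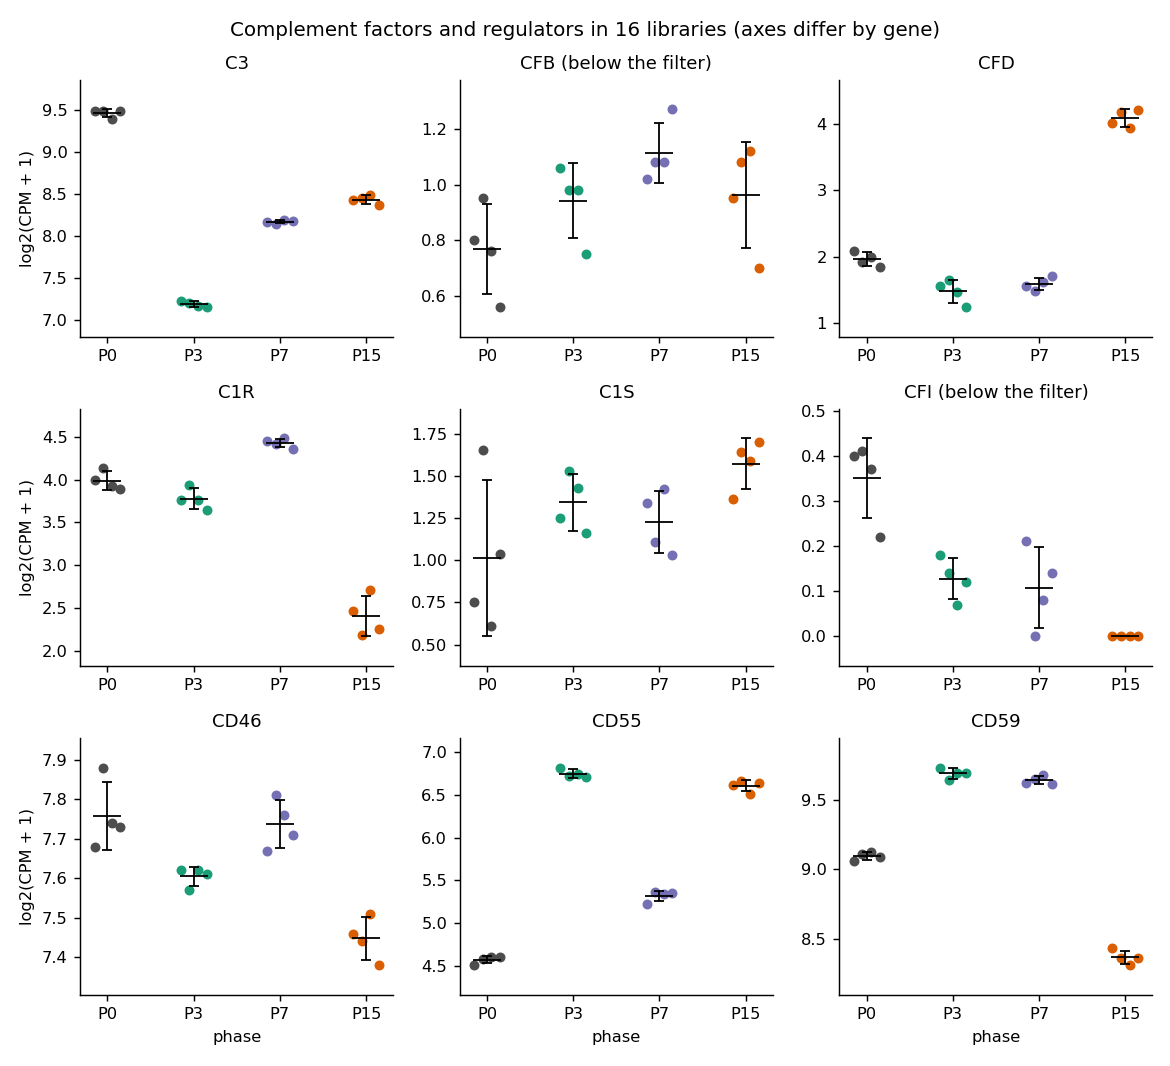
Log2(CPM + 1) of the 9 genes by phase, with a point for each of the 16 libraries and a bar for the mean ± SD of 4. Axes differ by gene. C3 fell from 9.47 at P0 to 7.19 at P3, CD55 stood at 4.57 and 6.75, and CFD was at 4.08 at P15 against at most 2.09 in any earlier library.

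CFD, factor D, the protease that cleaves CFB bound to C3 and so starts the alternative pathway enzyme, stood apart at P15. Its libraries read 2.09, 1.92, 2.00 and 1.84 at P0, 1.55, 1.64, 1.47 and 1.24 at P3, and 1.56, 1.48, 1.62 and 1.70 at P7. At P15 they read 4.01, 4.18, 3.94 and 4.21. All P15 libraries lay above all others, P0 lay above P3 and P7, and P3 and P7 overlapped. In CPM the phase means were 2.91 at P0, 1.79 at P3 and 2.02 at P7, and the P15 libraries held 14.35 to 17.51 CPM. CFD rose 4.35-fold from P0 to P15 (log2 difference 2.12, SE 0.09, limma adjusted p = 1.6e-16) and 6.11-fold from P3 to P15 (2.61, adjusted p = 2e-18). It was lower than P0 at P3 (-0.49, adjusted p = 6.5e-05) and at P7 (-0.37, adjusted p = 0.0013). The difference of P7 from P3 was 0.12 (SE 0.09, adjusted p = 0.30).

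CFD shares 255 exon bases with MED16 on the opposite strand, and the strand setting of the counting is not given in the sources used here. MED16, a Mediator subunit, stood at 5.68 at P0, 5.41 at P3, 5.6 at P7 and 5.96 at P15. Its P15 value was 0.28 above P0 (SE 0.06, limma adjusted p = 0.00017). The part of MED16 reads in the values of CFD was not tested.

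CFB, factor B, the substrate of CFD that forms the protease part of the alternative pathway C3 convertase, was low in every phase. It read 0.80, 0.95, 0.76 and 0.56 at P0, 1.06, 0.98, 0.98 and 0.75 at P3, 1.02, 1.08, 1.08 and 1.27 at P7, and 0.95, 1.08, 1.12 and 0.70 at P15. These are 17 to 56 estimated counts per library, and the mean over all libraries was 0.941 CPM. P7 lay above P0 without overlap, and the other pairs of phases overlapped. P7 exceeded P0 by 0.35 (exact permutation test, two-sided, p = 0.029, the smallest that 4 against 4 libraries allow), which was 0.069 after Benjamini-Hochberg adjustment over the 12 tests of CFB and CFI. In the limma fit without the filter on low genes this difference passed (0.34, SE 0.11, adjusted p = 0.035). CFB shares 42.3% of its exon bases with a read-through gene of the same strand, so its values are uncertain.

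CFI, factor I, the protease that inactivates C3 fragments, was near the limit of detection and listed at 0 in all libraries of P15. It had 12, 12, 10 and 6 estimated counts in the P0 libraries, 5, 4, 2 and 3 at P3, and 6, 0, 2 and 4 at P7. On the log2 values every P0 library lay above every library of the later phases, and P3 and P7 overlapped. The lowest P0 library and the highest P7 library, at 0.22 and 0.21, both had 6 estimated counts. The full separation of P7 from P0 thus rests on library depth. The P0 mean of 0.276 CPM was at least 15.1-fold higher than the 0.018 CPM that 3 counts over the P15 libraries together would give. P3 and P7, at 0.0928 and 0.0789 CPM, were at least 5.07-fold and 4.31-fold higher than that floor. The exact permutation test gave p = 0.029 for P3, P7 and P15 against P0 and for P15 against P3, and 0.069 for each after adjustment. Without the filter, limma called all 4, with adjusted p-values of 0.0007, 0.00038, 2.7e-06 and 0.024. A second gene model of the same strand shares 29.4% of the exon bases of CFI.

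C1R, the first protease of the classical pathway to be activated, rose slightly to P7 and was lowest at P15. It read 4.00, 4.14, 3.92 and 3.89 at P0, 3.76, 3.94, 3.76 and 3.65 at P3, 4.45, 4.42, 4.48 and 4.36 at P7, and 2.47, 2.19, 2.71 and 2.26 at P15. The P7 libraries lay above and the P15 libraries below all others, while P0 and P3 overlapped. In CPM the phase means were 14.9, 12.7, 20.5 and 4.36. C1R fell 2.99-fold from P0 to P15 (log2 difference -1.58, SE 0.09, limma adjusted p = 3.1e-14) and 4.06-fold from P7 to P15 (-2.02, adjusted p = 2e-16). P7 exceeded P0 by 0.44 (adjusted p = 0.00018) and P3 by 0.65 (adjusted p = 1.5e-06). The difference of P3 from P0 was -0.21 (SE 0.09, adjusted p = 0.042) and did not hold without replicate 2 of P0 (-0.16, adjusted p = 0.14), replicate 1 of P0, or replicates 1, 3 or 4 of P3. It was also lost without the filter on low genes (limma adjusted p = 0.12) and with a pseudocount of 0.1 (0.058). After quantile normalization (adjusted p = 0.18) and without a variance trend (0.059) it did not pass either. C1R shares 11.6% of its exon bases with C1RL on the same strand.

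C1S, which C1R cleaves and which then cleaves C4 and C2, is encoded 9.2 kb from C1R on chromosome 12 and did not follow it. Its libraries read 0.75, 1.65, 0.61 and 1.04 at P0, 1.25, 1.53, 1.43 and 1.16 at P3, 1.34, 1.11, 1.42 and 1.03 at P7, and 1.36, 1.64, 1.59 and 1.70 at P15. Every pair of phases overlapped, with replicate 2 of P0, the library with the most mitochondrial RNA of its phase, near the top of the P15 range. P15 exceeded P0 by 0.56 (SE 0.16, limma adjusted p = 0.0022), and by 0.77 without that library. P3 and P7 differed from P0 by 0.33 (adjusted p = 0.068) and 0.21 (adjusted p = 0.25). Without replicate 2 of P0 these differences were 0.54 (adjusted p = 0.00055) and 0.42 (adjusted p = 0.0053), and both passed. The P3 difference also passed without replicate 4 of P3 (0.39, limma adjusted p = 0.049). It passed too with a pseudocount of 0.1 (0.62, adjusted p = 0.048) and after quantile normalization (0.50, adjusted p = 0.013). The P7 difference passed under no other alternative. P15 exceeded P7 by 0.35 (adjusted p = 0.044), a call that ended without any of 7 single libraries (replicate 4 of P0, 3 of P3, 2 or 4 of P7, and 2, 3 or 4 of P15), with values of 0.28 to 0.35. It also ended without the filter on low genes and with a pseudocount of 0.1 (limma adjusted p = 0.15 and 0.071). Quantile and median scaling, blocking on the numbers of the titles and a fit without variance trend ended it too. The call was lost in 13 of 26 alternatives. What set replicate 2 of P0 apart was not tested.

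The ratio of C1R to C1S, which form 1 complex, was therefore followed in each library as the difference of their log2 values. It was 3.25, 2.49, 3.31 and 2.85 at P0, 2.51, 2.41, 2.33 and 2.49 at P3, 3.11, 3.31, 3.06 and 3.33 at P7, and 1.11, 0.55, 1.12 and 0.56 at P15. All P15 libraries lay below all others. In CPM, C1R was 13.54 times C1S at P0, 8.23 times at P3, 15.18 times at P7 and 2.2 times at P15. The ratio at P15 was lower than at P0 by 2.14, than at P3 by 1.6 and than at P7 by 2.37 on the log2 scale, and P7 exceeded P3 by 0.77 (two-sided exact permutation tests, p = 0.029 each, 0.043 adjusted over the 6 pairs of phases). P3 and P7 differed from P0 by -0.54 (exact p = 0.086, adjusted 0.103) and 0.23 (exact p = 0.314, adjusted 0.314).

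**Figure D2:**
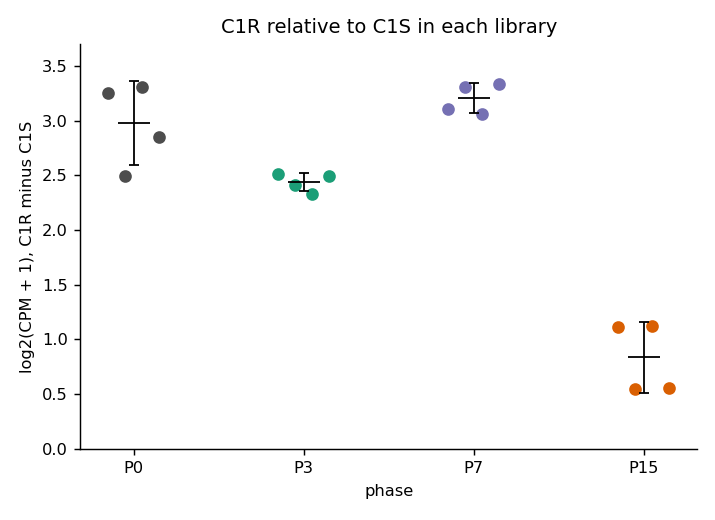
Difference of log2(CPM + 1) between C1R and C1S by phase, with a point for each library and a bar for the mean ± SD of 4. The 4 libraries of P15 sat between 0.55 and 1.12, below the 12 others at 2.33 to 3.33.

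CD55, the membrane protein that takes apart C3 convertases, had its lowest level in the parental cells and moved up, down and up again. It read 4.51, 4.58, 4.6 and 4.6 at P0, 6.82, 6.72, 6.75 and 6.71 at P3, 5.23, 5.36, 5.34 and 5.35 at P7, and 6.62, 6.66, 6.51 and 6.64 at P15. No library of a phase overlapped another phase. In CPM the phase means were 22.8 at P0, 107 at P3, 39.0 at P7 and 96.6 at P15. Against P0, CD55 rose 4.52-fold at P3 (log2 difference 2.18, SE 0.04, limma adjusted p = 3.1e-22), 1.68-fold at P7 (0.75, adjusted p = 1.6e-13) and 4.10-fold at P15 (2.04, adjusted p = 3.4e-23). Between P3 and P7 it fell 2.69-fold (-1.43, adjusted p = 1.9e-18), and between P7 and P15 it rose 2.44-fold (1.29, adjusted p = 3.1e-19). P15 was 0.14 below P3 (adjusted p = 0.0029), a difference of 0.07 with adjusted p = 0.15 after quantile normalization. Set beside C3, the 2 genes moved in opposite directions from P0 to P3 and from P3 to P7, and both rose from P7 to P15.

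CD59, which stops assembly of the membrane attack complex, rose at P3 and P7 and fell below the parental level at P15. Its libraries read 9.06, 9.11, 9.12 and 9.09 at P0, 9.73, 9.64, 9.69 and 9.69 at P3, 9.62, 9.65, 9.68 and 9.61 at P7, and 8.43, 8.36, 8.31 and 8.36 at P15. P3 and P7 overlapped each other and no other phase. In CPM the phase means were 546, 824, 797 and 329. CD59 was 1.51-fold higher at P3 than at P0 (log2 difference 0.59, SE 0.03, limma adjusted p = 1.8e-14) and 1.46-fold higher at P7 (0.54, adjusted p = 1.2e-13). It was 1.66-fold lower at P15 than at P0 (-0.73, adjusted p = 4.2e-17) and 2.42-fold lower than at P7 (-1.27, adjusted p = 4.9e-22). The difference of P7 from P3 was -0.05 (SE 0.03, adjusted p = 0.18).

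CD46, the cofactor for CFI on the cell surface, varied least of the abundant members. It read 7.68, 7.88, 7.74 and 7.73 at P0, 7.62, 7.57, 7.62 and 7.61 at P3, 7.67, 7.81, 7.76 and 7.71 at P7, and 7.46, 7.44, 7.51 and 7.38 at P15. P15 lay below all other libraries, P3 lay below P0 and P7, and P0 and P7 overlapped. P15 was 1.24-fold below P0 (log2 difference -0.31, SE 0.04, limma adjusted p = 8.5e-08), and P3 was 0.15 below P0 on the log2 scale (-0.15, adjusted p = 0.0014). Without replicate 2 of P0, the highest CD46 library, these differences were -0.27 and -0.11 and still passed. P7 and P0 differed by -0.02 (SE 0.04, adjusted p = 0.68). CD46 and CD55 lie 365.2 kb apart on chromosome 1, with the complement receptor genes CR2 and CR1 between them.

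Per kb of exon, counted over all exons annotated for a gene, C3 and CD59 led the group. This length can exceed that of the transcripts made, by unlike amounts between genes. Rankings of genes below therefore hold for this length only. C3 stood at 61.1 CPM per kb at P0, above 95.2% of the tested genes that had an exon length, and at 12.6 at P3, above 72.1%. CD59 stood at 51.7, 78.0, 75.5 and 31.1 CPM per kb over the 4 phases and was above C3 from P3 on, though at P15 the means of 31.1 and 29.9 lay close together. CD46 kept 11.2 to 13.9 CPM per kb. CD55 ranged from 2.22 to 10.4, CFD from 0.987 to 8.81 and C1R from 0.751 to 3.54. C1S and CFB stayed between 0.133 and 0.239, and CFI between 0 and 0.0519.

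Summed over CD46, CD55 and CD59, the inhibitors stood at 67.8 ± 1.7 CPM per kb at P0 (SD, n = 4 libraries), 101 ± 2.5 at P3, 93.0 ± 2.2 at P7 and 51.8 ± 1.2 at P15. The lowest sum was thus at P15, where CD55 was high. CD59 made up 76.2% of this sum at P0, 77.3% at P3, 81.2% at P7 and 60.2% at P15. CD55 made up 3.28%, 10.3%, 4.09% and 18.2%, and CD46 20.5%, 12.4%, 14.7% and 21.6%. All annotated exons came to 15.5 kb for CD46, 10.25 kb for CD55 and 10.56 kb for CD59, and the sums and shares depend on these lengths. They are a description of RNA per exon length and were not tested.

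**Figure D3:**
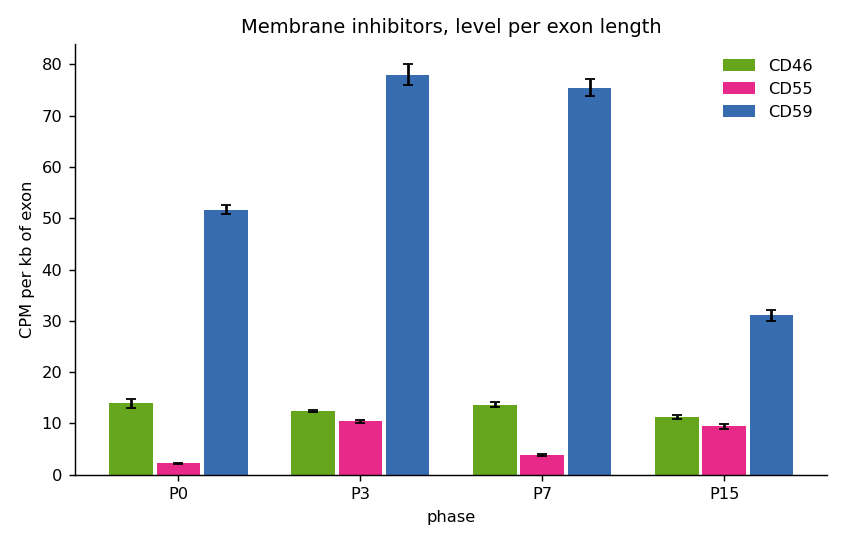
Mean CPM per kb of exon of CD46, CD55 and CD59 in each phase, with bars from 0 and error bars of 1 SD over 4 libraries. Lengths are those of all annotated exons. On this length CD59 was the highest of the 3 in every phase and lowest at P15 (31.1). CD46 kept 11.2 to 13.9, and CD55 was high at P3 (10.4) and P15 (9.42).

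Across the 7 tested genes, calls are set beside those of all tested genes. Between P3 and P0, 6 passed, where 68.7% of all tested genes did. Of these, 2 were higher (31.4% of all genes) and 4 lower (37.3%). CD55 rose at least 2-fold and C3 fell at least 2-fold, which 4.46% of all genes did in either direction, 1.95% higher and 2.51% lower. Between P7 and P0, 5 passed against a background of 62.1%, with 3 higher (27.9%) and 2 lower (34.2%). C3 was the single gene past 2-fold, and fell, where 3.37% of all genes passed 2-fold, 1.86% higher and 1.52% lower.

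Between P15 and P0, all 7 tested genes passed, against 86.2% of all genes. CD55, CFD and C1S were higher (45.3% of all genes) and C3, C1R, CD46 and CD59 lower (40.9%). CD55 and CFD rose and C3 and C1R fell at least 2-fold, where 23.6% of all genes passed 2-fold, 12.1% higher and 11.4% lower. Both directions thus occurred among the proteases and among the inhibitors.

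From P3 to P7, 4 of the 7 passed against 58.2% of all genes. C1R, C3 and CD46 were higher (30.3% of all genes) and CD55 was lower (28.0%). CD55 was the single gene past 2-fold, where 1.83% of all genes passed 2-fold, 0.989% higher and 0.845% lower. From P7 to P15 all 7 tested genes passed against 86.4%, with CFD, CD55, C1S and C3 higher (46.3%) and C1R, CD59 and CD46 lower (40.1%). CFD and CD55 rose and C1R and CD59 fell at least 2-fold, where 25.5% of all genes passed 2-fold, 13.4% higher and 12.1% lower. Between P15 and P3, 6 passed against 87.2%, with CFD and C3 higher (46.1%) and C1R, CD59, CD46 and CD55 lower (41.1%). CFD and C3 rose and C1R and CD59 fell at least 2-fold, against 27.1% of all genes, 14.9% higher and 12.1% lower.

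The median absolute log2 difference of the 7 genes was 0.49 for P3 against P0, 0.44 for P7 against P0 and 1.03 for P15 against P0. Over all tested genes it was 0.23, 0.20 and 0.51. For P7 against P3 the 7 genes had the smaller median, 0.13 beside 0.18. The medians were 1.25 beside 0.56 for P15 against P3 and 1.27 beside 0.55 for P15 against P7. The counts at an adjusted p-value below 0.05 lay near the background shares and are no result about these genes.

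**Figure D4:**
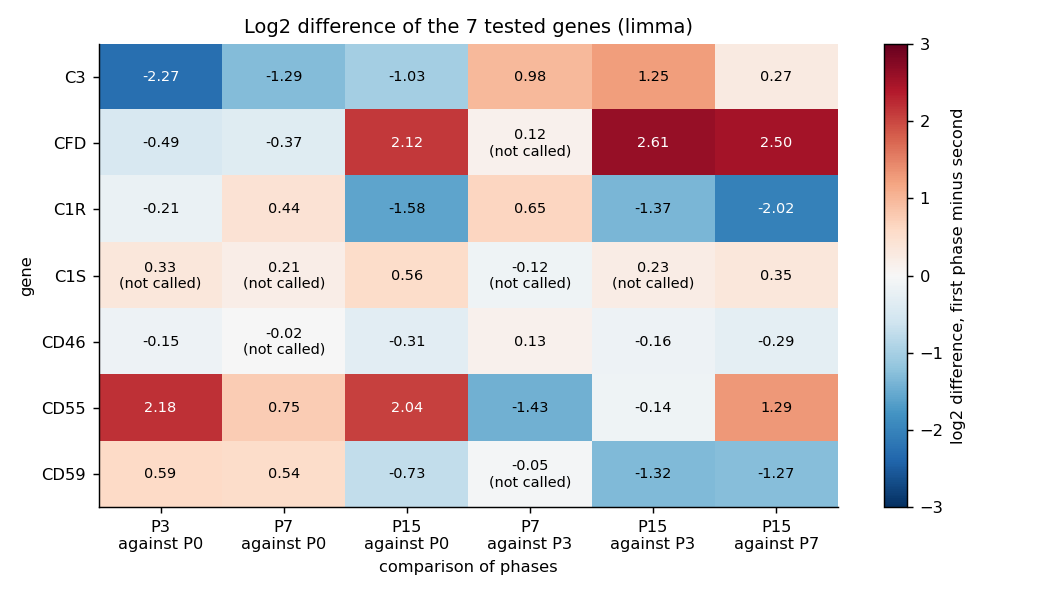
Log2 difference (first phase minus second, colour scale -3 to 3) of the 7 tested genes in the 6 comparisons of phases, with the value in each cell and those that did not pass marked. The steepest values were those of CFD for P15 against P3 (2.61) and against P7 (2.50), followed by C3 (-2.27) and CD55 (2.18) for P3 against P0.

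Epithelial markers moved with late phase P15. The summed level of the 6 epithelial genes KRT7, KRT8, KRT18, KRT19, EPCAM and CDH1 was 2070 to 2150 CPM at P0, 2350 to 2480 at P3, 1670 to 1810 at P7 and 673 to 751 at P15, with 5, 5, 5 and 3 of the genes above 1 CPM. KRT7 went from 9.90 at P0 to 3.64 at P15 and KRT19 from 6.43 to 0.02, while KRT18 stood at 8.88 and 9.31. CDH1, which encodes E-cadherin, was at or near 0 in every phase, the parental line included (0.06 at P0). The part of this shift in the P15 values of the complement genes was not tested. Of the leukocyte markers, PTPRC and CD3E were at or near 0 in every phase, and CD14, at 2.96 at P0 and 0.08 at P15, held nearly all of their sum of 6.16 to 8.56 CPM at P0. The 4 liver markers ALB, APOA1, TTR and FGB summed to at most 0.157 CPM in any library. The endothelial sum was 6 to 7.95 CPM at P0, mostly CDH5, and at most 1.09 later. The fibroblast sum was 1.68 to 5.77 CPM up to P7 and 23.6 to 26.4 at P15, mostly COL1A1, with DCN at or near 0.

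Of 50 further complement components, inhibitors and receptors, 46 had a row, 6 were tested (C1RL, C5, CLU, C1QBP, ITGB2 and THBD) and 40 had a mean of at most 1 CPM. Between P3 and P0, 4 of the 6 passed (2 higher, 2 lower), where 68.7% of all tested genes did. Between P7 and P0, 4 passed (2 higher, 2 lower), where 62.1% did. Between P15 and P0 all 6 passed, each higher, where 86.2% of all tested genes passed and 45.3% were called higher. These 6 are the genes above the filter on low genes. Without it, calls for P15 against P0 went both ways. Among those higher were C5AR1 (1.29, limma adjusted p = 2.6e-09) and CR1 (0.46, adjusted p = 0.00016). Among those lower were C3AR1 (-0.64, adjusted p = 7.2e-06) and C4BPB, of few counts (-0.22, adjusted p = 0.0042). CLU and ITGB2 were past 2-fold at P15 against P0, where 23.6% of all tested genes were, 12.1% higher and 11.4% lower.

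CLU, clusterin, a secreted chaperone that also inhibits the membrane attack complex, was the further complement gene with the largest difference at P15. It read 2.04, 2.49, 2.31 and 2.14 at P0, 2.72, 3.15, 3.01 and 2.81 at P3, 2.6, 2.50, 2.6 and 2.56 at P7, and 5.86, 5.90, 5.81 and 5.82 at P15. All P15 libraries lay above all others, and in CPM the means were 3.77, 6.63, 4.92 and 56.6. CLU rose 12.1-fold from P0 to P15 (log2 difference 3.60, SE 0.09, limma adjusted p = 1.9e-21). ITGB2, the beta chain of complement receptor 3, rose 2.99-fold (1.58, SE 0.10, adjusted p = 1.8e-13), with 1.66 to 2.00 at P0 and 3.25 to 3.49 at P15.

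C1RL, a C1R-like protease gene whose exons overlap those of C1R, read 4.22, 4.32, 4.10 and 4.17 at P0, 3.17, 3.07, 3.16 and 2.95 at P3, 3.89, 3.82, 3.93 and 3.88 at P7, and 4.41, 4.43, 4.62 and 4.48 at P15. No phase overlapped another. C1RL fell from P0 to P3 by 1.11 (SE 0.07, limma adjusted p = 2.9e-13) and was 0.28 above P0 at P15 (adjusted p = 0.00034), where C1R was lowest. C5, which the terminal pathway starts from, stood at 1.17 ± 0.09 at P0 (SD, n = 4 libraries) and 1.98 ± 0.22 at P15, a rise of 0.81 (SE 0.11, limma adjusted p = 1.8e-07). Its differences at P3 and P7 were -0.04 each (adjusted p = 0.72 and 0.74). C1QBP, a mitochondrial protein that can bind C1q, fell at P3 (-0.20, adjusted p = 4.5e-05) and P7 (-0.42, adjusted p = 6.7e-10) and rose at P15 (0.51, adjusted p = 3.4e-12), each against P0. THBD, thrombomodulin, was higher than P0 at P3 by 0.82, at P7 by 0.44 and at P15 by 0.73 (SE 0.09, adjusted p of at most 0.00031).

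**Figure D5:**
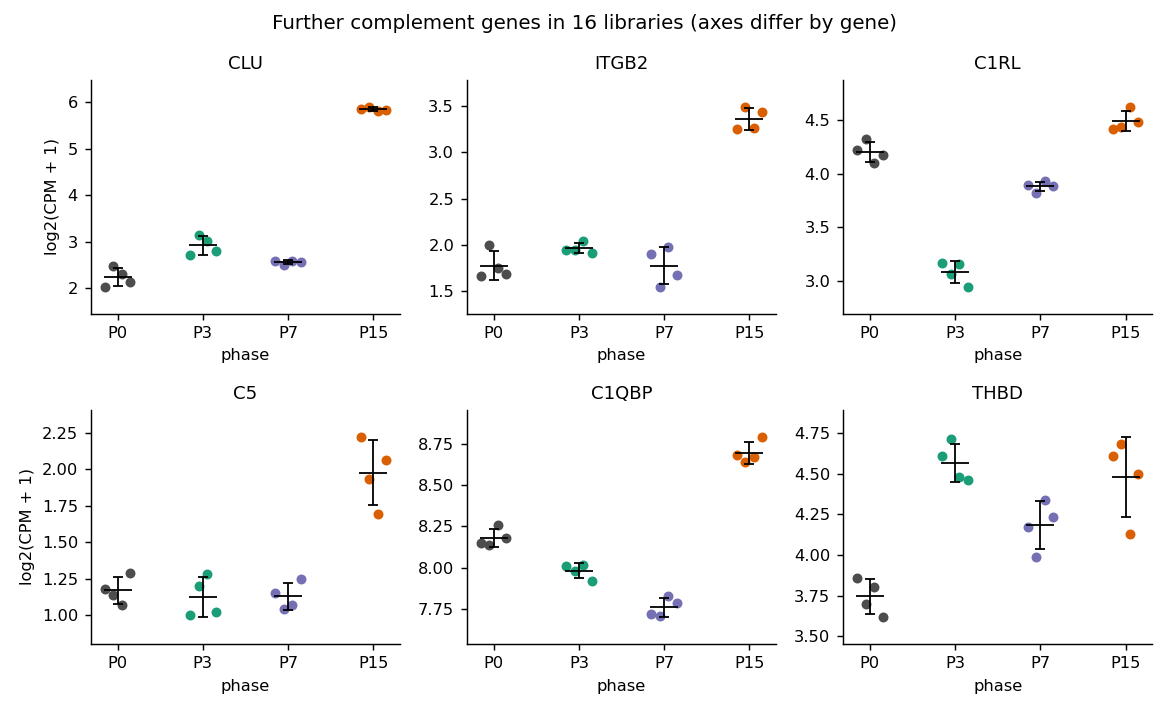
Log2(CPM + 1) of 6 further complement genes by phase, with a point for each library and a bar for the mean ± SD of 4. Axes differ by gene. CLU stood at 5.81 to 5.90 at P15 against at most 3.15 before, and ITGB2 at 3.25 to 3.49 against at most 2.04 before.

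The substrates of C1S had few counts. C2 had phase means of 0.0447 to 0.145 CPM. C4A had 0.142 to 0.173 CPM and C4B 0.0883 to 0.136, and since these are near-identical copies their reads cannot be assigned with certainty. SERPING1, which encodes the inhibitor of C1R and C1S, had phase means of at most 0.0255 CPM and was at 0 in all libraries of P7.

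Genes were also ranked by how near their 4 phase means, each centred on the gene's own mean, lay to those of a tested member, by root mean square difference over 4 phases. The nearest to C3 were BMF, a pro-death member of the BCL2 family (0.11), and PTGES, a prostaglandin E synthase (0.16). Nearest to CD55 were SGK1, a kinase (0.10), and WDR66 (0.13), with SGK1 at 4.26, 6.41, 5.02 and 6.07 over P0, P3, P7 and P15. CFD had WNT2B, a WNT ligand (0.03), and PITPNC1 (0.04), CD59 had LINC00641 (0.02) and MIR22HG (0.04), and C1R had ARHGEF40 and KB-1732A1.1 (0.06 each). For the flatter genes C1S (QSOX2 and RP11-274B21.3) and CD46 (FAM212B and MED7) the distance was 0.01 each. Among 13249 genes and 4 phases, near patterns are to be found for most shapes.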

How the data were processed

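RNA of 16 libraries of T24 and GRC1 cells was sequenced in paired-end reads. By the study's methods and processing notes, the authors aligned reads to GRCh38 with STAR 2.6.1a, counted them with featureCounts and scaled the counts to CPM. The deposited table holds log2(CPM + 1), rounded to 2 decimals, without the quantile normalization and median centring that the methods also name. How reads fitting several genes were treated is not given in the sources used here. Date-like symbols took up 27 of its 39007 rows, and 2 names were repeated.

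Library totals were derived from the steps between the smallest CPM values, and floors of 3 counts cover counting error only. The fit was limma 3.58.1 (R 4.3.3) on 13249 genes whose mean exceeded 1 CPM, with a coefficient for each phase, a variance trend and Benjamini-Hochberg adjustment, and it was tested on simulated data. CFB, CFI and the ratio of C1R to C1S were compared by exact permutation tests in Python 3.11.15. Exon lengths, each the merged length of all annotated exons of a gene, and coordinates came from GENCODE 44, which matched 91.0% of the tested symbols. Promoter windows came from RefSeq (GRCh38.p14). Replicate numbers came from the sample descriptions.

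The members and gene lists were chosen with earlier results of these data known, so counts over them are descriptions. Named are all 9 members, further complement genes that passed with at least 2-fold in any comparison, C2, C4A, C4B, C5, SERPING1, CLU and C1QBP whatever their values (a further gene of this rule and a marker are not reported here), and for each tested member the 2 nearest genes by phase means. THBD, MED16, C3AR1 and the receptor genes beside CD55 were named after their values were seen. Also tried were 2 other filters on low genes, pseudocounts of 0.1 and 5, quantile and median scaling, blocking on replicate number, a fit without variance trend, fits to only the phases compared, and leaving out each library.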

Additional observations from a re-analysis of the deposited data

Results flagged for a closer look

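Among 84 groups of 4 libraries checked for a library far from the others, 4 stood out, about the 4 that chance gives at 1 in 20. C3 in replicate 3 of P0 was lower than in the other libraries of its phase, 9.40 against 9.49 in each, with the gap equal to the whole range (ratio 1.00). CD55 in replicate 1 of P7 was lower, 5.23 against 5.34 to 5.36 (ratio of gap to range 0.85). SERPING1 in replicate 3 of P0 was at 0.08 and in replicate 1 of P15 at 0.14, with the other libraries of each phase at 0 (ratio 1.00 each), which are a few counts each.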

How the results depend on the processing

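No difference that passed reversed its direction. Small differences that did not pass could change sign, such as CD46 for P7 against P0, which was -0.02, and 0.02 without replicate 2 of P0. Over 1092 values of single members under the alternatives, 1063 kept their side of the threshold, 23 lost the call and 6 gained it. All 23 losses were in C1R (P3 against P0), C1S (P15 against P7) and CD55 (P15 against P3). With the library numbers of the descriptions as a replicate block, 6, 5 and 7 members passed for P3, P7 and P15 against P0, as without it, and with the numbers of the titles 6 rather than 7 passed for P15 against P7. Same-numbered libraries did not deviate together (r of -0.15 to 0.22 over 24 pairs of libraries, 1 over 0.1, and 5 of 16 libraries nearest to their own number), so the numbers were not taken as pairs.

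The pseudocount moved the counts of genes past 2-fold. With 0.1 in place of 1, 939 rather than 591 genes passed for P3 against P0, 711 rather than 447 for P7 against P0 and 445 rather than 243 for P7 against P3. With 5, the counts were 290 for P3, 203 for P7 and 1976 (rather than 3126) for P15 against P0, 106 for P7 against P3, and 2321 (rather than 3588) and 2166 (rather than 3376) for P15 against P3 and P7. Of the further complement genes, 0, 1 and 1 then passed 2-fold for P3 against P0, P15 against P0 and P15 against P7, in place of 1, 2 and 2. The ratio of C1R to C1S with a pseudocount of 5 differed from P0 by -0.27 at P3 and 0.3 at P7 and passed (exact permutation test, adjusted p = 0.029).

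The filter decided how many further complement genes were tested. Without it, 10, 12 and 17 passed for P3, P7 and P15 against P0, 10 for P7 against P3, and 17 and 16 for P15 against P3 and P7, of 40 tested. With at least 1 CPM in 4 libraries, 10 were tested. Of these, 7 passed for P3 against P0, and 9 and 10 for P15 against P3 and P7. Past 2-fold were 4 for P15 against P0 and 6 for P15 against P3 under either filter, in place of 2 and 3. Shares of all genes called under these filters are not given here, so the counts are no result about the complement genes. Quantile normalization gave 2 members past 2-fold for P7 against P3, in place of 1. No scaling moved the median of all genes by over 0.1. Leaving out 1 library gave 5 to 6 members for P3 against P0, 5 to 6 for P7 against P0 and 6 to 7 for P15 against P7. Of all 13249 tested genes, 8703 to 9244, 7748 to 8402 and 11287 to 11520 then passed. CFB, CFI and C1S rest on few counts, and GRC1 is a single line.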

Other observations

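The further complement genes below the filter are given here as values and were chosen after their values were seen. C5AR1, the receptor of the C5a fragment, had phase means of 0.104 CPM at P0, 0.187 at P3, 0.191 at P7 and 1.72 at P15. In the limma fit without the filter it was higher at P15 than at P0 by 1.29 on the log2 scale (SE 0.09, adjusted p = 2.6e-09). ITGAX, the alpha chain of complement receptor 4, was highest at P3 (log2 value 1.27 against 0.29 at P0, 0.86 at P7 and 0.14 at P15), a difference of 0.98 from P0 (SE 0.08, limma adjusted p = 6.5e-08). C4BPB, a chain of the C4b-binding protein, had 0.166 CPM at P0 and 0.507 at P3 and was at 0 in all libraries of P7 and P15. Its P3 level was at least 27.5-fold and 27.7-fold higher than the 0.018 CPM that 3 counts over the libraries of P7 and of P15 would give. CR2 was also at 0 in all libraries of P15, with 0.123 CPM at P0.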
